A study of Drosophila melanogaster with 12 samples.

Results

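Heads of *tbph* Δ142 mutant flies were set against heads of *w1118* control flies, gene by gene, with 3 arrays of each genotype. These are 6 of the 12 arrays in the series, chosen by their genotype labels alone, and every gene with a probe set of its own was followed, 11982 in all. *tbph* Δ142 is a loss-of-function allele of *TBPH*, described as null, from a single line kept over the CyO-GFP balancer. The mutant flies profiled are described as homozygous for it, and the gene is affected throughout development and in every tissue. Both genotypes were raised on standard food without RU-486, and whole heads were collected 60 h after eclosion. Of the other 6 arrays, 3 hold a second loss-of-function allele, *tbph* Δ23, also homozygous, whose values are given where they bear on *tbph* Δ142. The remaining 3 hold a rescue in the *tbph* Δ23 background, with UAS-TBPH driven in neurons by *elav*-GS-GAL4 under 5 mM RU-486, and they entered only the estimate of the spread. The arrays of a genotype are described as biological replicates. The sources used here give neither the number of heads per array nor the sex of these flies. The mutation and any other difference between the mutant and the *w1118* stock cannot be told apart.

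TBPH is the fly counterpart of TDP-43, a mostly nuclear RNA-binding protein that acts on the splicing, stability and transport of many transcripts. Loss of TDP-43 from the nucleus and its deposition in the cytoplasm mark the neurons and glia of most patients with amyotrophic lateral sclerosis and many with frontotemporal dementia. In flies, loss of TBPH impairs neuromuscular synapses and locomotion and shortens life. A fly head holds brain, retina, glia, fat body, muscle, hemocytes and the epidermis that lays down the cuticle, so a lower value in such a sample cannot tell fewer cells of a type from less RNA per cell.

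Values are log2 RMA levels, so that a difference of 1 is a 2-fold change, and a difference is always *tbph* Δ142 minus *w1118* unless another pair is named. Each difference carries the standard error (SE) of a limma fit over all 12 arrays, and a gene passed when its Benjamini-Hochberg adjusted p was under 0.05. Arrays correlated with the others of their group at 0.996 to 0.997 in *tbph* Δ142 and at 0.995 to 0.997 in *w1118*. The 3′ probe sets of actin exceeded its 5′ probe sets by 2.67 to 3.03 in *tbph* Δ142 and by 2.24 to 2.70 in *w1118*. For GAPDH the same quantity was 1.91 to 2.12 in *tbph* Δ142 and 1.74 to 1.94 in *w1118*, and for eIF-4a 2.60 to 2.88 in *tbph* Δ142 and 2.37 to 2.64 in *w1118*. This quantity grows as RNA is degraded, and it lay higher in the mutant with a small overlap. Counts are therefore also given from a fit that holds the actin value as a covariate. Because that value goes largely with genotype, a call can be lost there through a wider error as well as through a smaller difference. A lost call is thus not shown to be an effect of RNA quality. Markers of neurons averaged 8.18 to 8.37 in *tbph* Δ142 and 8.29 to 8.35 in *w1118* (9 measured, 2 higher and 2 lower), and those of photoreceptors 12.98 to 13.01 in *tbph* Δ142 and 12.82 to 12.91 in *w1118* (5 measured, 2 higher). Markers of testis and male accessory gland, at 3.20 to 3.27 in *tbph* Δ142 and 3.23 to 3.32 in *w1118*, and of ovary, at 3.35 to 3.47 in *tbph* Δ142 and 3.42 to 3.52 in *w1118*, lay near the bottom of the scale.

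*TBPH* itself was measured by a pair of probe sets. The brighter probe set read 5.45, 5.32 and 5.52 in *tbph* Δ142 and 7.96, 8.02 and 7.97 in *w1118*, a difference of -2.55 ± 0.14 (SE, adjusted p = 2.11e-07 in limma over all probe sets). The dimmer one read 3.14, 3.30 and 3.13 in *tbph* Δ142 and 3.51, 3.35 and 3.57 in *w1118*, close to the bottom of the scale (-0.29 ± 0.09, adjusted p = 0.0389). Their median, which stands for the gene, differed by -1.42 ± 0.09 (adjusted p = 8.88e-07), and the 3 mutant arrays lay below all 3 control arrays. This median takes in the dimmer probe set and is smaller in size than the difference of the brighter one. In *tbph* Δ23 the median differed from *w1118* by 0.10 (adjusted p = 0.521) and the brighter probe set by 0.20 (adjusted p = 0.35), and the sources used here do not place either deletion relative to these probes. *RpL32*, a ribosomal protein gene often used as a constant reference, read 12.80, 12.75 and 12.84 in *tbph* Δ142 and 12.68, 12.64 and 12.67 in *w1118* (0.13 ± 0.06, adjusted p = 0.112). Of the 10 protein-coding genes on each side of *TBPH*, 19 were measured and 2 passed. These were *Snap29*, a SNARE protein gene, at -0.32, and *ken*, which encodes a transcriptional repressor, at -0.75. In *tbph* Δ23 they differed from *w1118* by -0.28 and -0.46, also past the threshold, and the other 17 neighbours lay between -0.21 and 0.23 in *tbph* Δ142.

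Across the transcriptome 2996 of 11982 genes passed, which is 25.0% of those tested. Of these, 1204 were higher in *tbph* Δ142 (10.0% of genes tested) and 1792 were lower (15%). The median difference over all genes was -0.01, and among genes that passed the median size was 0.46. A difference of at least 1 was reached by 192 higher genes (1.6%) and 275 lower genes (2.3%). Without overlap between the 3 mutant and the 3 control arrays there were 2070 higher genes (17.3%) and 2695 lower genes (22.5%), 39.8% of genes in either direction. Higher genes made up 40.2% of those that passed, against 49.5% with array medians set equal and 47.9% with quantiles equalised again, so the split moves with the scaling. With the actin value as a covariate 1716 genes passed, and 1654 of the original 2996 were among them with the same sign.

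**Figure D1:**
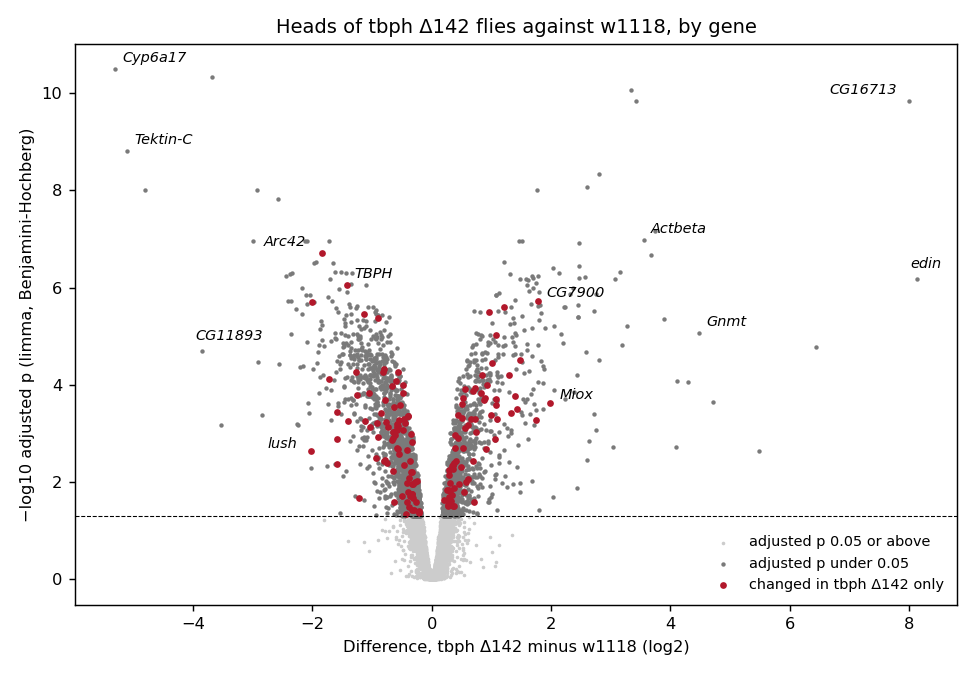
Difference between *tbph* Δ142 and *w1118* heads (horizontal, log2) and −log10 of the adjusted p (vertical) for each of 11982 genes, with the threshold of 0.05 as a dashed line. Red points are the 153 genes changed in *tbph* Δ142 only, which lie among the moderate differences, while *edin* at 8.14 and *Cyp6a17* at -5.30 mark the ends of the range.

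The 15 largest rises fell into a group of secreted immune and stress peptides and a group with other roles. *edin*, an infection-induced peptide gene, read 12.19, 12.71 and 12.28 in *tbph* Δ142 and 4.31, 4.44 and 4.01 in *w1118* (8.14 ± 0.49), with the controls near the bottom of the scale. The antimicrobial peptide genes *AttD*, *DptB* and *CecB* rose by 6.45, 4.30 and 3.67. *PGRP-SC2*, which encodes an amidase that degrades peptidoglycan, rose by 4.71. *Diedel*, a secreted immune regulator, read 7.28, 10.60 and 10.92 in *tbph* Δ142 and 4.11, 3.98 and 4.27 in *w1118* (5.48 ± 1.04, adjusted p = 0.00226), and *TotC*, a stress peptide gene, read 10.21, 12.03 and 12.54 in *tbph* Δ142 and 7.20, 6.97 and 8.35 in *w1118* (4.09 ± 0.76, adjusted p = 0.00192). In both genes the first mutant array lay well below the other 2, while all 3 stayed above the controls.

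Among the other large rises, *Gnmt* encodes glycine N-methyltransferase, which spends S-adenosylmethionine on glycine. It read 11.31, 10.69 and 11.18 in *tbph* Δ142 and 7.45, 5.84 and 6.44 in *w1118* (4.48 ± 0.38, 22.3-fold, adjusted p = 8.66e-06). *Actbeta*, an Activin ligand gene, read 8.19, 8.36 and 8.17 in *tbph* Δ142 and 4.71, 4.33 and 5.01 in *w1118* (3.55 ± 0.16). *Zip102B*, of the ZIP metal transporter family, rose by 3.74, and *mthl8*, of the methuselah-like receptors, by 3.43. In each of these 4 genes the lowest mutant array lay well above the highest control. The remaining 4 genes are known only by number and rose by 3.35 (*CG40298*) to 8.00 (*CG16713*), with *CG30098* at 4.11 and *CG9377* at 3.90 between them.

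The 15 largest falls were mostly of genes for secreted, detoxifying or structural proteins. *Cyp6a17*, a cytochrome P450 gene with a known part in temperature preference, read 3.54, 3.33 and 3.63 in *tbph* Δ142 and 8.83, 8.77 and 8.80 in *w1118*, a difference of -5.30 ± 0.09, with the mutant near the bottom of the scale. *Tektin-C*, a gene for a filament of the axoneme, read 3.88, 3.65 and 3.84 in *tbph* Δ142 and 8.86, 9.03 and 8.80 in *w1118* (-5.10 ± 0.15). *lov*, a BTB transcription factor gene that acts in larval and adult locomotion, read 3.13, 3.24 and 3.10 in *tbph* Δ142 and 6.94, 6.70 and 6.90 in *w1118* (-3.69 ± 0.07). In *tbph* Δ23 the differences of *Cyp6a17*, *Tektin-C* and *lov* were -5.40, -5.09 and -3.67. *robo1*, the receptor for the midline repellent Slit, fell by 2.99. Enzymes of detoxification were represented by *Ugt301D1* (-4.80), *Ugt37A3* (-2.84) and *GstE1* (-2.57), and secreted or fat body proteins by *Obp99b* (-3.52), *Fbp1* (-2.91), *Cpr51A* (-2.93) and *Drsl4* (-2.41). *CG11893* read 3.83, 3.70 and 4.59 in *tbph* Δ142 and 7.72, 8.06 and 7.87 in *w1118* (-3.84 ± 0.37), and *cysu* fell by 2.37. Both were also lower in *tbph* Δ142 than in *tbph* Δ23, with differences of -2.47 (adjusted p = 0.0054) and -1.09 (adjusted p = 0.00195), and *tbph* Δ23 differed from *w1118* by -1.37 and -1.28. *CG5697* and *Pxd*, a peroxidase gene, complete the list at -2.55 and -2.44.

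Many genes that passed in *tbph* Δ142 did not pass in *tbph* Δ23, but a missed threshold is no difference. Of the 2996 genes, 1095 did not pass in *tbph* Δ23, and for 153 of these the 2 mutants also differed from each other past the threshold with *tbph* Δ142 on the far side from *w1118*. These 153 genes, 1.28% of those tested, are called changed in *tbph* Δ142 only. There were 68 higher (0.568%) and 85 lower (0.709%), with a median size of 0.57. A further 83 genes passed in both mutants and lay farther from *w1118* in *tbph* Δ142, and 35 lay nearer. Both mutants were set against the same *w1118* arrays, and set directly against each other they differed in 418 genes (3.49%), 170 higher (1.42%) and 248 lower (2.07%) in *tbph* Δ142. The mutants also stood apart in the sign of RNA quality and in fat body genes. The 3′ minus 5′ values of *tbph* Δ142 given above did not overlap those of *tbph* Δ23, at 2.26 to 2.42 for actin, 1.84 to 1.90 for GAPDH and 2.40 to 2.45 for eIF-4a. Markers of the fat body averaged 8.05 to 9.03 in *tbph* Δ142, 6.94 to 7.80 in *tbph* Δ23 and 8.36 to 9.28 in *w1118*. The yolk protein gene *Yp1* averaged 12.74 in *tbph* Δ142, 10.82 in *tbph* Δ23 and 12.86 in *w1118*. For *Yp2* the means were 12.16 in *tbph* Δ142, 9.32 in *tbph* Δ23 and 12.71 in *w1118*, and for *Yp3* 12.49 in *tbph* Δ142, 10.42 in *tbph* Δ23 and 11.96 in *w1118*. All 3 differed between the mutants (*tbph* Δ142 minus *tbph* Δ23 of 1.92, 2.84 and 2.06, adjusted p = 0.0123, 0.000164 and 0.00979). Yolk protein genes are expressed in females, the sex of the flies is not given, and its part in the differences between the mutants was not tested. The count of 153 moved with single arrays and with the covariate. It was 47 without replicate 3 of *tbph* Δ23, 72 without replicate 1 or replicate 3 of *tbph* Δ142, 91 without replicate 2 of *tbph* Δ142, 83 without replicate 2 of *tbph* Δ23 and 12 with the actin value as a covariate. Of the original 153, 44 were kept without replicate 3 of *tbph* Δ23 and 11 with the covariate. The 11 genes included *TBPH*, *Arc42*, *CG11668*, *CHKov2*, *CG6654*, *CG7900*, *glob1* and *Aprt*. No other gene named in this report is among the 11.

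Among genes changed in *tbph* Δ142 only, several of the largest rises were of metabolic enzymes. With the actin value as a covariate *Miox*, *hll*, *bgm*, *Tdh* and *pug* no longer belonged to that set, while *glob1* and *CG7900* did. *Miox*, which encodes myo-inositol oxygenase, read 9.29, 8.86 and 8.96 in *tbph* Δ142 and 7.34, 6.44 and 7.36 in *w1118* (1.99 ± 0.27, adjusted p = 0.000237, against 0.45 in *tbph* Δ23). *hll* and *bgm*, a pair of acyl-CoA synthetase genes of the bubblegum family, rose by 1.74 and 1.07, against -0.01 and 0.34 in *tbph* Δ23. *Tdh*, for threonine dehydrogenase, read 9.04, 8.80 and 8.58 in *tbph* Δ142 and 7.42, 7.52 and 7.59 in *w1118* (1.30 ± 0.15). *pug*, for a methylenetetrahydrofolate dehydrogenase, read 10.77, 10.33 and 10.53 in *tbph* Δ142 and 9.43, 9.29 and 9.61 in *w1118* (1.10 ± 0.17). In *tbph* Δ23 *Tdh* and *pug* differed from *w1118* by 0.37 and 0.16. *glob1*, a globin gene, rose by 1.08, *Tsp42Ed*, a tetraspanin gene, by 1.09, and *TotF*, a Turandot peptide gene, by 1.07. The other 7 of the 15 largest rises are genes known by number, from *CG3301* at 1.00 to *CG7900* at 1.78. *CG7900* read 6.62, 6.26 and 6.56 in *tbph* Δ142 and 4.73, 4.48 and 4.91 in *w1118*. The value of *CG3301* comes from 1 of 3 probe sets, and its brightest stood at -0.11 (adjusted p = 0.471), so no direction is given for that gene.

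The largest falls in the same set were more mixed. *lush*, which encodes the odorant-binding protein for a male pheromone, read 5.00, 5.34 and 5.61 in *tbph* Δ142 and 7.28, 7.67 and 7.09 in *w1118* (-2.03 ± 0.39, adjusted p = 0.00231, against -0.05 in *tbph* Δ23). With the actin value as a covariate it no longer passed (adjusted p = 0.0505). *Arc42*, an acyl-CoA dehydrogenase gene of mitochondrial fatty acid breakdown, read 5.71, 6.07 and 5.96 in *tbph* Δ142 and 7.66, 7.72 and 7.89 in *w1118* (-1.84 ± 0.09, adjusted p = 1.97e-07, against -0.08 in *tbph* Δ23). *Hsp26*, a small heat shock protein gene, read 6.60, 7.24 and 6.58 in *tbph* Δ142 and 8.38, 8.95 and 7.84 in *w1118* (-1.59 ± 0.28). Its relative *l(2)efl*, also a small heat shock protein gene, moved the other way by 0.94 and was likewise changed in *tbph* Δ142 only. *Cht5*, a chitinase gene, fell by 1.72, *frm* by 1.59, *CHKov2*, of a choline kinase-like family, by 1.13, and *Eh*, for the eclosion hormone, which triggers ecdysis, by 1.11. *CG2444* differed from *w1118* by -1.22 in *tbph* Δ142 and by 0.88 in *tbph* Δ23, where it did not pass. Its *tbph* Δ142 call was lost without replicate 1 or 2 of *tbph* Δ142 and without replicate 2 of *w1118* (adjusted p up to 0.0865).

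**Figure D2:**
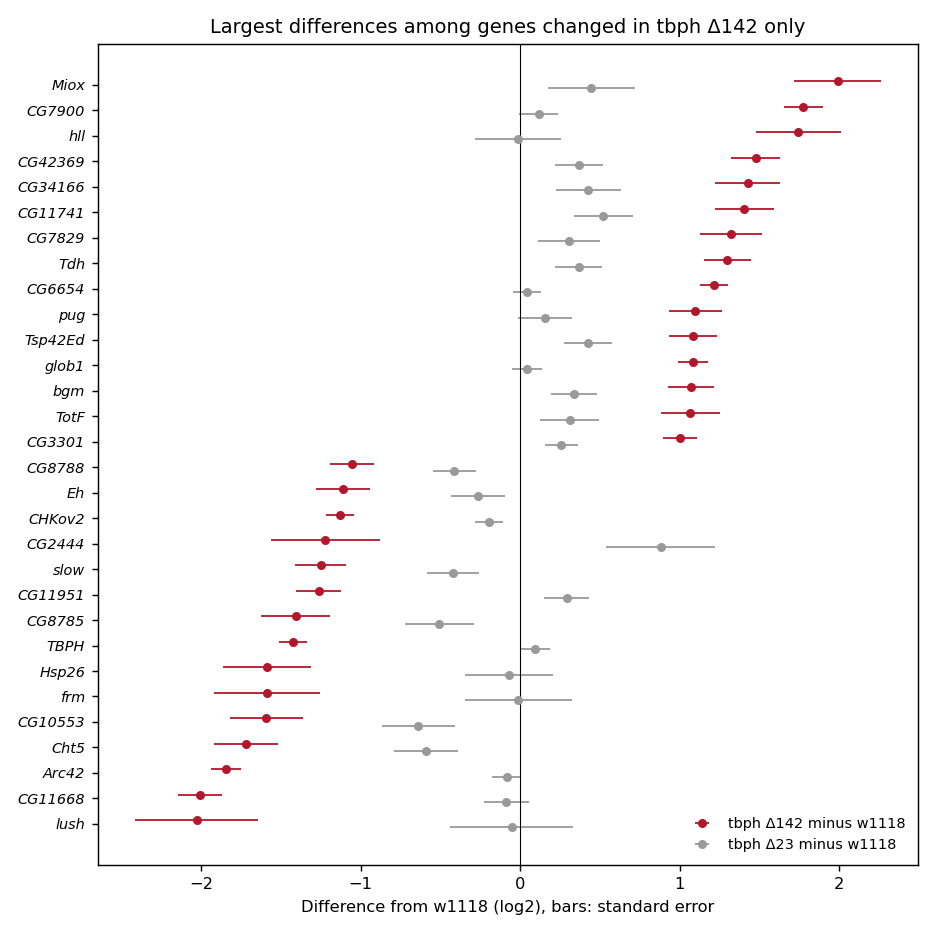
Difference from *w1118* (horizontal, log2) of the 15 largest rises and 15 largest falls among genes changed in *tbph* Δ142 only, for *tbph* Δ142 (red) and *tbph* Δ23 (grey), with the standard error of the fit as bars. The *tbph* Δ142 values reach 1.99 for *Miox* and -2.03 for *lush*, while those of *tbph* Δ23 for the same genes lie between -0.64 and 0.88.

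The genes that set *tbph* Δ142 apart were unevenly spread over chromosome arms. *TBPH* lies on arm 2R. Of the 153 genes, 54 lay on 3R, which is 35.3% of them, while 3R carries 24.8% of all genes tested. Arm X held 30 (19.6%, against 15.6% of genes tested), 3L 28, 2L 19, 2R 19 and the fourth chromosome 2. Of the 54 genes on 3R, 39 were lower and 15 higher in *tbph* Δ142. Among the 42 genes that differed between the 2 mutants by at least 1 log2 past the threshold (0.351% of genes tested), 25 lay on 3R (59.5%). With the actin value as a covariate 9 of the 12 genes changed in *tbph* Δ142 only lay there. By contrast, genes changed between *tbph* Δ142 and *w1118* made up 24.7% of the genes tested on 3R, close to the 25.0% of the whole array. The genetic background of each stock was not measured, and its part in this pattern was not tested.

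In the 77 gene lists examined, calls were unevenly spread, and the plot of list members shows 19 of them. The lists at its ends are the antimicrobial peptides and the 26S proteasome. Of 14 antimicrobial peptide genes listed only 6 were measured, and all 6 rose (median 3.43). The other genes of that list were not followed, so the count does not cover every antimicrobial peptide. Of 32 proteasome genes listed 26 were measured, and all 26 fell (median -1.16). Between these ends most lists had medians near the -0.01 of all genes and a few members far out on one side.

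**Figure D3:**
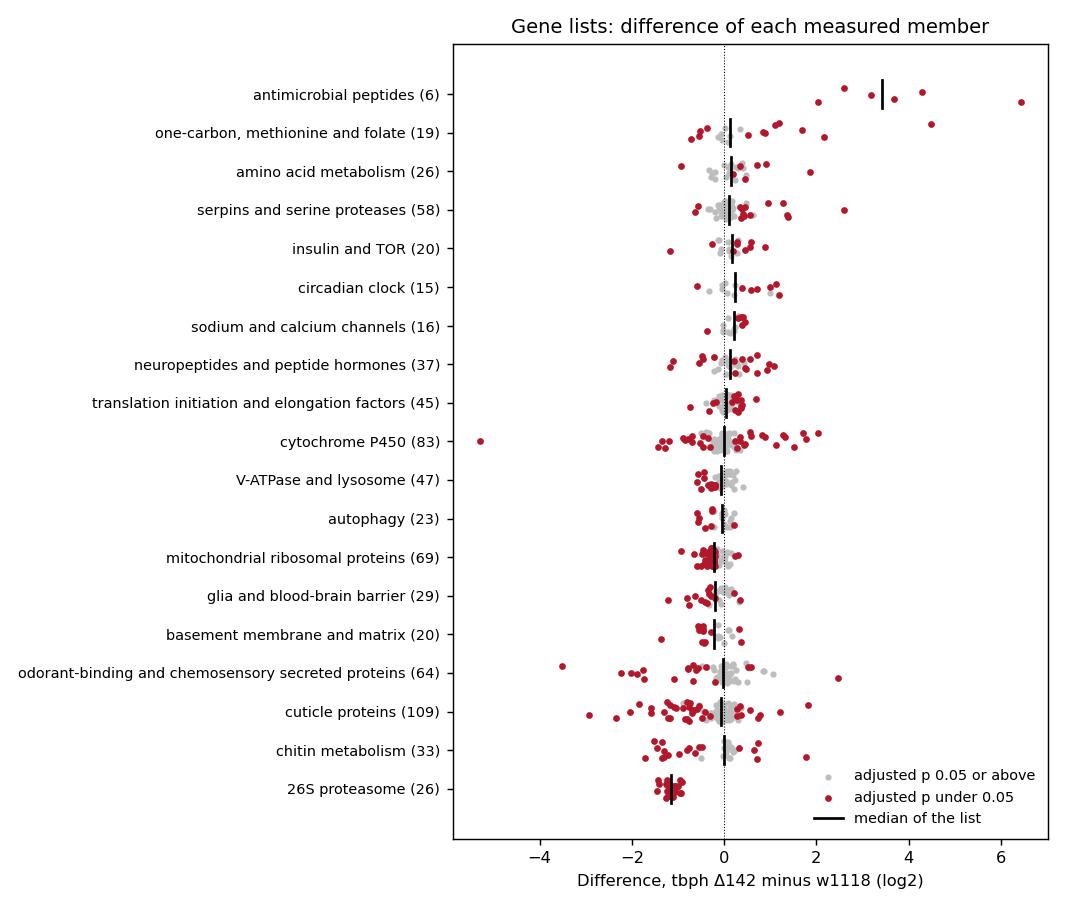
Difference between *tbph* Δ142 and *w1118* (horizontal, log2) of each measured gene in 19 lists, with the number measured in brackets, genes past the threshold in red, list medians as black bars and the median of all genes as a dotted line. Chitin and cuticle genes trail far to the left of their medians, and one-carbon genes trail to the right, up to 4.48 for *Gnmt*.

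A group of rises concerned one-carbon metabolism, in which folate and S-adenosylmethionine carry single carbons between serine, glycine and methionine. Of the 19 measured genes of the list, 8 rose and 4 fell (median 0.13), against 10.0% and 15% of all genes, and 7 of the rises and 3 of the falls were kept with the actin value as a covariate. These kept calls are against *w1118*. With the covariate *pug* and *Ahcy* were no longer among genes changed in *tbph* Δ142 only. Beside *Gnmt*, *Sardh*, for the sarcosine dehydrogenase that returns its product to glycine, read 8.47, 8.17 and 8.42 in *tbph* Δ142 and 6.03, 6.05 and 6.48 in *w1118* (2.17 ± 0.19, 4.51-fold). *Nmdmc*, a mitochondrial folate enzyme gene, read 9.97, 10.01 and 9.91 in *tbph* Δ142 and 8.16, 8.25 and 8.42 in *w1118* (1.69 ± 0.17). *Shmt*, for the enzyme that moves a carbon from serine to folate, read 11.10, 10.92 and 11.11 in *tbph* Δ142 and 9.73, 9.69 and 10.14 in *w1118* (1.19 ± 0.11). No mutant array of these 3 genes overlapped the controls. *Ahcy*, for the hydrolase that clears S-adenosylhomocysteine, read 9.44, 9.17 and 9.31 in *tbph* Δ142 and 8.35, 8.47 and 8.47 in *w1118* (0.88 ± 0.12), and differed by 0.07 in *tbph* Δ23. The direct comparison put *Sardh*, *Shmt*, *pug* and *Ahcy* higher in *tbph* Δ142 than in *tbph* Δ23, by 0.90, 0.65, 0.94 and 0.81 (adjusted p = 0.0245, 0.0111, 0.0122 and 0.00471), while *Gnmt* and *Nmdmc* did not pass there (0.71 and -0.23, adjusted p = 0.407 and 0.576).

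A further 4 enzyme genes were picked from those higher in *tbph* Δ142 only after their values were seen, so they stand for no group. *Adi1*, of the methionine salvage pathway, rose by 0.73 ± 0.09, *Agxt*, an aminotransferase gene that makes glycine from glyoxylate, by 0.83 ± 0.11, and *Aprt*, which recovers adenine, by 0.97 ± 0.07. *Prat2*, for the first step of purine synthesis, rose by 0.54 ± 0.14 and lost its call with the actin value as a covariate (adjusted p = 0.161), without replicate 3 of *tbph* Δ142 and without replicate 2 of *w1118* (adjusted p up to 0.0616). In *tbph* Δ23 *Adi1*, *Agxt*, *Aprt* and *Prat2* differed from *w1118* by 0.26, 0.12, 0.11 and -0.12. Only *Aprt* of these 4 stayed among genes changed in *tbph* Δ142 only with the covariate. Of the wider amino acid list, 6 of 26 genes rose and 1 fell (23.1% and 3.85%, median 0.15), against 10.0% higher and 15% lower of all genes. *Bcat*, for branched-chain amino acid transaminase, read 9.94, 9.96 and 9.47 in *tbph* Δ142 and 7.65, 8.26 and 7.87 in *w1118* (1.86 ± 0.26). *hgo*, of tyrosine breakdown, rose by 0.92, *P5CS*, of proline synthesis, by 0.71, and *Got1*, an aspartate aminotransferase gene, by 0.45. The single fall was of *e* (ebony), which also belongs to the pigmentation genes.

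**Figure D4:**
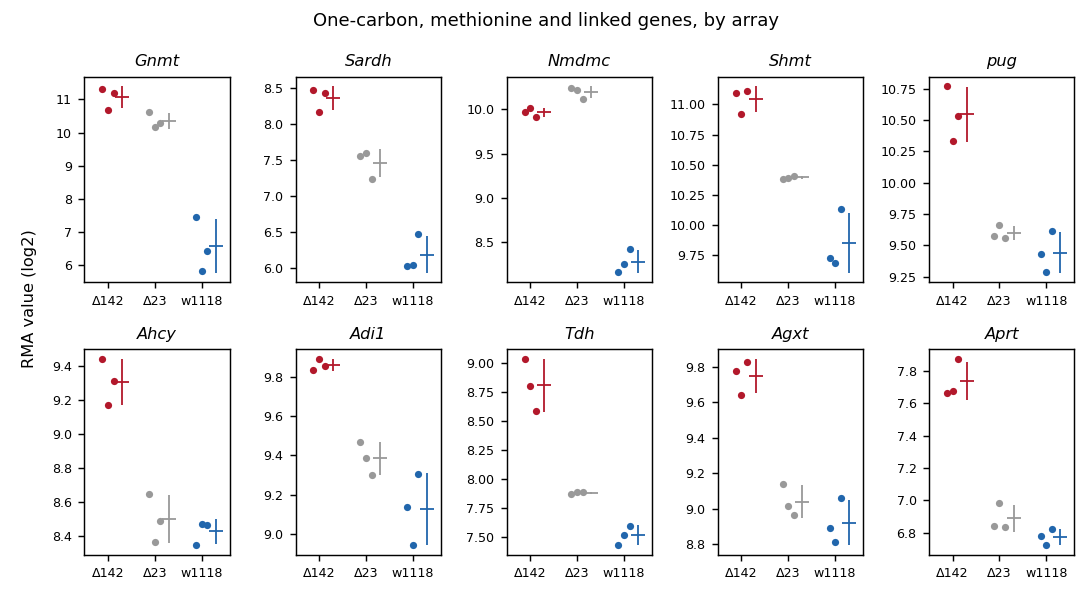
RMA level (vertical, log2) of 10 genes of one-carbon, methionine and linked metabolism, picked among those that rose, in each array of *tbph* Δ142 (red), *tbph* Δ23 (grey) and *w1118* (blue), with the mean and SD of each group as a bar (n = 3). In all 10 genes the 3 *tbph* Δ142 arrays lie above the 3 *w1118* arrays, and for *pug*, *Ahcy*, *Agxt* and *Aprt* the *tbph* Δ23 arrays lie close to *w1118*.

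Among genes that build the cuticle more fell than rose, and most genes for structural cuticle proteins did not pass. All 6 measured markers of the cuticle-secreting epidermis fell, and their mean level was 7.97 to 8.19 in *tbph* Δ142 and 9.44 to 9.55 in *w1118*. These 6 belong to the lists of cuticle proteins and chitin metabolism and were chosen with earlier results of these data known, so their count is no independent evidence of a direction. *kkv*, the chitin synthase gene, read 8.71, 8.59 and 8.78 in *tbph* Δ142 and 10.08, 10.36 and 10.00 in *w1118* (-1.45 ± 0.19, 2.74-fold lower). *knk*, needed to organise chitin fibres, read 7.26, 7.06 and 7.11 in *tbph* Δ142 and 7.86, 8.21 and 7.67 in *w1118* (-0.77 ± 0.16), and was changed in *tbph* Δ142 only. *Cpr97Ea*, *Cpr64Aa*, *Vajk3* and *Acp65Aa*, all for structural cuticle proteins, fell by 1.59, 2.03, 1.58 and 0.90. The mutant arrays of *kkv* and *knk* lay entirely below the controls. How far a smaller epidermal share of the RNA enters them was not tested.

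Of the 33 measured genes of chitin metabolism, 14 fell and 5 rose (42.4% and 15.2%, against 15% lower and 10.0% higher of all genes). The 14 falls were all among the 27 genes that are not imaginal disc growth factors, of which none rose, and 12 of them were kept with the actin value as a covariate. *Cht5* read 9.27, 9.12 and 8.85 in *tbph* Δ142 and 10.73, 11.18 and 10.50 in *w1118* (-1.72 ± 0.20). Its difference from *tbph* Δ23 was -1.13 (adjusted p = 0.0124). *Cda4*, for a chitin deacetylase, fell by 1.52 and *Cht7*, for another chitinase, by 1.35. The 5 rises were all of imaginal disc growth factors, secreted relatives of chitinases that lack the enzyme activity, of which 6 were measured. *Idgf1* read 9.73, 9.76 and 9.89 in *tbph* Δ142 and 8.02, 8.00 and 8.01 in *w1118* (1.78 ± 0.16). The median of the whole list was -0.01, and that of the 27 other genes was -0.51.

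Of 109 genes for structural cuticle proteins, 28 fell, 9 rose and 72 did not pass (median -0.07). The shares were 25.7% lower and 8.26% higher, against 15% lower and 10.0% higher of all genes. With the actin value as a covariate 22 of the falls and 3 of the rises were kept. *Cpr51A* read 4.94, 5.01 and 4.91 in *tbph* Δ142 and 7.84, 7.93 and 7.87 in *w1118* (-2.93 ± 0.10). *TwdlT* fell by 2.35, *Cpr64Aa* by 2.03 and *Vajk2* by 1.84, while *Cpr49Af* rose by 1.81. *TwdlT* was the only one of these 5 genes that was also lower than in *tbph* Δ23 past the threshold (-0.85). Cuticle is coloured and hardened by dopamine derivatives, and in that list 7 of 32 genes fell and 2 rose (21.9% and 6.25%). *e* (ebony), for the enzyme that couples dopamine to beta-alanine, read 8.62, 8.54 and 8.58 in *tbph* Δ142 and 9.46, 9.67 and 9.42 in *w1118* (-0.94 ± 0.19), against 0.08 in *tbph* Δ23. With the actin value as a covariate *e* and *knk* no longer passed (adjusted p = 0.0654 and 0.0726). Of the yellow family, *yellow-e*, *yellow-h* and *yellow-d2* fell by 1.42, 1.14 and 1.09, and *yellow-f*, which encodes a dopachrome-converting enzyme, rose by 1.55. *Eip78C*, an ecdysone-induced nuclear receptor gene, fell by 1.47, against -0.58 in *tbph* Δ23. It was the largest of 3 falls among 22 genes of ecdysone and juvenile hormone signalling. Their share of falls, 13.6%, lay near the 15% of all genes.

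**Figure D5:**
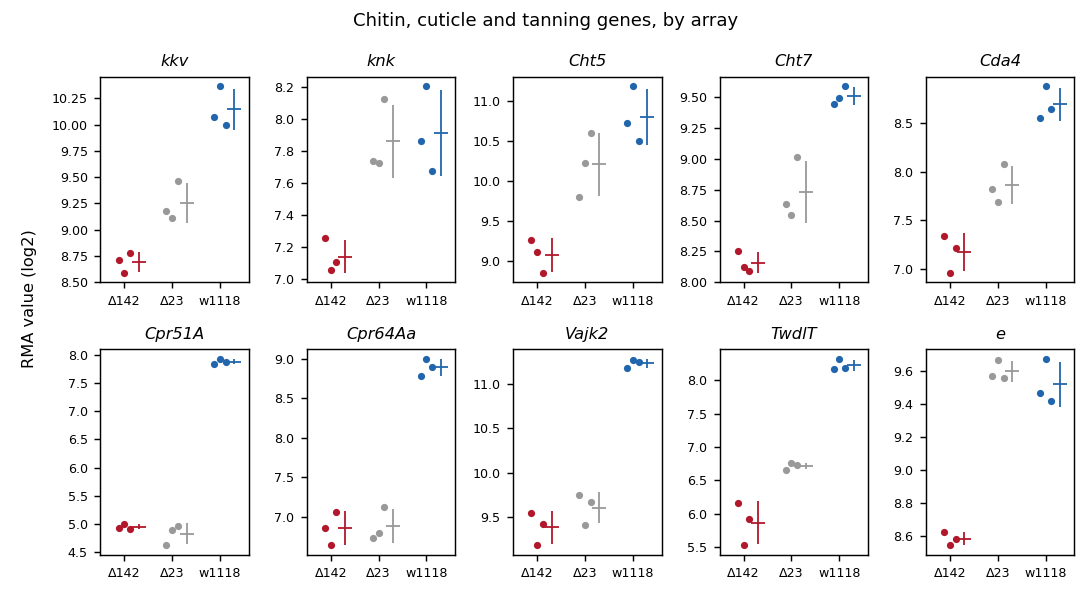
RMA level (vertical, log2) of 10 genes of chitin, cuticle and tanning, picked among those that fell, in each array of *tbph* Δ142 (red), *tbph* Δ23 (grey) and *w1118* (blue), with the mean and SD of each group as a bar (n = 3). The 3 *tbph* Δ142 arrays lie below the 3 *w1118* arrays in all 10 genes, and *knk* and *e* stay near the *w1118* level in *tbph* Δ23.

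Genes of lipid and sugar use moved in both directions. In lipid synthesis 6 of 24 genes rose and 6 fell (25% each, median 0.01), against 10.0% higher and 15% lower of all genes. Beside *bgm*, *Desat1*, for a fatty acid desaturase, rose by 0.78, a call lost without replicate 1 or 2 of *tbph* Δ142 (adjusted p up to 0.0726), while *Dgat2* and *bond*, of triglyceride and very long chain fatty acid synthesis, fell by 0.94 and 0.91. *bmm*, the fly adipose triglyceride lipase gene, read 10.45, 10.45 and 10.25 in *tbph* Δ142 and 9.17, 9.61 and 9.39 in *w1118* (0.99 ± 0.15), and was changed in *tbph* Δ142 only. *whd*, for the carnitine palmitoyltransferase that admits fatty acids to mitochondria, stood at 1.11 (1.21 in *tbph* Δ23) as the median of a pair of probe sets, of which the brighter rose by 2.34 (2.44 in *tbph* Δ23) and the other, near the bottom of the scale, stood at -0.11. *tobi*, a glucosidase gene named as a target of brain insulin, read 7.29, 5.39 and 6.92 in *tbph* Δ142 and 3.46, 3.64 and 3.38 in *w1118* (3.04 ± 0.56). *Pgm1*, of glycogen metabolism, rose by 0.80. Of 4 measured genes in the list of larval serum and storage proteins 2 fell, the fat body protein genes *Fbp1* (-2.91) and *Fbp2* (-1.06). The storage protein gene *Lsp2* did not pass (-0.33, adjusted p = 0.839 in limma). The yolk protein genes and *fit*, which mark the female fat body, had no member of 4 past the threshold (median 0.20, against -1.79 in *tbph* Δ23).

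Of 20 genes of insulin and TOR signalling 7 rose and 2 fell (35% and 10%, median 0.17), against 10.0% higher and 15% lower of all genes. With the actin value as a covariate 2 of each were kept. *InR*, the insulin receptor gene, read 8.25, 8.77 and 8.10 in *tbph* Δ142 and 7.53, 7.10 and 7.81 in *w1118* (0.89 ± 0.20), and did not pass with the covariate (adjusted p = 0.0862). *Sdr*, a secreted decoy of that receptor, rose by 0.58 and *Pdk1*, a kinase of the pathway, by 0.56. The insulin-like peptides made by the same brain cells moved apart. *Ilp5* read 7.78, 7.13 and 7.56 in *tbph* Δ142 and 8.74, 8.58 and 8.68 in *w1118* (-1.18 ± 0.18), and *Ilp2* rose by 0.45. Of all 37 neuropeptide and peptide hormone genes measured, 11 rose and 6 fell (29.7% and 16.2%, median 0.13), with 7 and 2 kept under the covariate. The share of falls was close to that of all genes. *FMRFa*, *Mip* and *AstC*, for 3 neuropeptides, rose by 1.09, 0.96 and 0.94. *Eh*, made by a single pair of brain neurons, read 6.38, 5.93 and 6.35 in *tbph* Δ142 and 7.22, 7.74 and 7.02 in *w1118*. Of 21 neuropeptide receptor genes only *AkhR*, the adipokinetic hormone receptor gene, passed, at -0.52, and 5 of the 6 fits that left out 1 array lost that call (adjusted p up to 0.147), keeping it only without replicate 2 of *w1118*. Its brighter probe set did not pass (-0.48, adjusted p = 0.21).

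The circadian clock list had 6 rises and 1 fall among 15 genes (40% and 6.67%, median 0.23), against 10.0% higher and 15% lower of all genes. The 6 rises were kept with the actin value as a covariate. *Pdp1*, an activator of *Clk*, read 10.31, 10.36 and 10.00 in *tbph* Δ142 and 8.95, 8.87 and 9.26 in *w1118* (1.20 ± 0.12). *tim* and *per*, whose products repress the clock's activators, rose by 1.14 ± 0.19 and 0.99 ± 0.27, and *cwo*, another repressor, by 0.70. *Clk*, for one of those activators, fell by 0.60 (adjusted p = 0.0479), just inside the threshold, and lost the call in each fit without 1 array of either genotype (adjusted p up to 0.123). The call of *per* was lost without any one *tbph* Δ142 array and without replicate 2 of *w1118* (adjusted p up to 0.0733). The sources used here do not state the time of day of collection.

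Ion channel genes held calls in both directions, against 10.0% higher and 15% lower of all genes. Of 16 sodium and calcium channel genes 5 rose and 1 fell (31.2% and 6.25%, median 0.22), and 4 of the rises were kept with the actin value as a covariate. *para*, the voltage-gated sodium channel gene, read 7.98, 7.92 and 7.96 in *tbph* Δ142 and 7.44, 7.60 and 7.46 in *w1118* (0.46 ± 0.07). Of 20 potassium channel genes 5 rose and 3 fell, the share of falls being that of all genes, and 4 and 2 were kept with the covariate. *SK*, a calcium-activated channel gene, and *Slob*, for a protein that binds the *slo* channel, rose by 0.65 and 0.79, while *Irk3* fell by 0.88. The brighter of the *Slob* probe sets rose by 1.35 and the other stood at 0.22 (adjusted p = 0.194). *slo*, the large-conductance calcium-activated channel gene, read 8.20, 8.09 and 8.07 in *tbph* Δ142 and 8.75, 8.68 and 8.64 in *w1118* (-0.57 ± 0.06), against -0.03 in *tbph* Δ23. It belongs to the genes changed in *tbph* Δ142 only. So do *VGAT*, the vesicular GABA transporter gene (-0.39), *prt*, for a vesicular transporter of mushroom body neurons (-0.50), *Adar*, for the RNA-editing enzyme (-0.57), and *milt*, for the adaptor that ties mitochondria to kinesin (-0.48). The call of *milt* rests on 1 of its 3 probe sets, and the brightest stood at -0.16 (adjusted p = 0.11). *VGAT* and *prt* lost their calls with the actin value as a covariate (adjusted p = 0.25 and 0.244). *VGAT* lost it also without replicate 2 or 3 of *tbph* Δ142 or replicate 1 or 2 of *w1118* (up to an adjusted p of 0.0687), and *prt* without replicate 2 of *tbph* Δ142 or replicate 2 or 3 of *w1118* (up to 0.0821).

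Among synaptic vesicle and active zone genes 6 of 40 rose and 3 fell (15% and 7.5%, against 10.0% higher and 15% lower of all genes), with a median of 0.01, and 1 of the rises and 2 of the falls were kept with the actin value as a covariate. *shi*, the dynamin gene that retrieves synaptic vesicles, is counted among the falls, but 1 of its 3 probe sets alone fell (-1.07 ± 0.11, adjusted p = 2.99e-05). Its other probe sets, the brightest included, both stood at -0.11 (adjusted p = 0.211 and 0.346), so no value is given for the gene. In axon guidance 1 of 41 genes rose and 8 fell. Beside *robo1*, *trn*, a leucine-rich repeat adhesion gene, fell by 0.56. Of 51 Beat, side, Dpr and DIP adhesion genes 1 rose, *DIP-alpha*, which read 6.95, 6.94 and 6.90 in *tbph* Δ142 and 5.29, 5.00 and 5.24 in *w1118* (1.76 ± 0.11), and 1 fell, *dpr13* (-0.28), whose brighter probe set did not pass (-0.12, adjusted p = 0.332). *Arc1*, a capsid-like gene induced by activity, rose by 1.59. *Galphaq*, of the phototransduction cascade, stood at 1.14 as the median of 3 probe sets, but its brightest probe set stood at -0.27, so no direction is given for the gene.

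Of 64 genes for chemosensory secreted proteins 15 fell and 3 rose (23.4% and 4.69%, against 15% lower and 10.0% higher of all genes), and 11 and 2 of them were kept with the actin value as a covariate. The list median, at -0.02, was close to the -0.01 of all genes. *Obp99b* read 6.16, 5.54 and 8.13 in *tbph* Δ142 and 10.85, 9.23 and 10.32 in *w1118* (-3.52 ± 0.56). *CheA7a* fell by 2.23 and *Obp83g* by 1.88, whereas *Obp8a* read 7.88, 7.65 and 7.91 in *tbph* Δ142 and 5.27, 5.26 and 5.48 in *w1118* (2.48 ± 0.15). Few receptor genes for these stimuli passed. Of 193 odorant, gustatory, ionotropic and related receptor genes 7 rose and 1 fell (3.63% and 0.518%), the largest being *Or63a* at 0.75. In vision, *ninaD*, for the scavenger receptor that takes up carotenoids, fell by 2.16 and *stops*, a regulator of phospholipase C levels, rose by 0.76, among 7 rises and 4 falls in 29 genes, of which 2 and 3 were kept with the covariate.

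Detoxification genes moved both ways, some by large sizes. Their shares of falls lay near the 15% of all genes, of which 10.0% were higher. Of 83 cytochrome P450 genes 17 rose and 15 fell (20.5% and 18.1%, median 0.01), and of these 10 and 13 were kept with the actin value as a covariate. *Cyp12c1* read 7.72, 7.80 and 7.94 in *tbph* Δ142 and 6.12, 5.80 and 6.19 in *w1118* (1.78 ± 0.10), and lay 0.46 above *tbph* Δ23 (adjusted p = 0.0378). *Cyp6g1*, known from insecticide resistance, rose by 1.71, and *Cyp6a23*, a close relative of *Cyp6a17*, by 1.51. *Cyp4d21* rose by 2.04, with *w1118* arrays between 4.69 and 7.50, and lost its call without replicate 2 or 3 of *tbph* Δ142 (adjusted p up to 0.0657). Among 35 UDP-glycosyltransferase genes 6 rose and 6 fell (17.1% each). *Ugt36A1* rose by 1.68, against falls of 1.47 for *Ugt36E1* and 1.22 for *Ugt302K1*. Of 34 glutathione transferase genes 4 rose and 6 fell (11.8% and 17.6%). *GstE14*, which acts in ecdysteroid synthesis, rose by 1.62, while *GstE5* and *GstS1* fell by 1.84 and 1.00. The neighbouring esterase genes *alpha-Est9* and *alpha-Est10* both fell in *tbph* Δ142 only, by 0.43 and 0.75, and neither passed with the actin value as a covariate (adjusted p = 0.316 and 0.0702). The call of *alpha-Est9* held in only 1 of the 6 fits that left out 1 array, the one without replicate 3 of *tbph* Δ142 (adjusted p up to 0.172).

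In most mitochondrial lists the calls were mainly falls, many of which were lost under another scaling or with the covariate. Over all genes 10.0% were higher and 15% lower. The tricarboxylic acid cycle differed, with 3 rises and no fall among 11 genes, and none of the rises was kept with the covariate. Of 69 mitochondrial ribosomal protein genes 41 fell and 2 rose (59.4% and 2.9%, median -0.23), and 14 of the falls were kept with the actin value as a covariate. With array medians set equal 24 fell. *mRpL18* read 6.73, 6.69 and 6.84 in *tbph* Δ142 and 7.58, 7.80 and 7.67 in *w1118* (-0.93 ± 0.08), and *mRpS26* fell by 0.65. Of 9 genes of mitochondrial protein import 5 fell and none rose, led by *blp* at -0.71, with 2 falls when array medians were set equal and 2 kept with the covariate. Complex I had 1 rise and 3 falls among 32 genes (3.1% and 9.4%, both below the shares of all genes), with 1 of the falls kept under the covariate. Complexes II, III and IV had 1 rise and 5 falls among 24 genes (4.2% and 20.8%), and none of these falls was kept. ATP synthase had 5 falls among 15 genes (median -0.15), of which 1 was kept, and 2 falls with array medians set equal. Cytosolic ribosomal protein genes had 3 rises and 1 fall among 34 (median 0.07). Of 45 translation initiation and elongation factor genes 12 rose and 4 fell, and 8 of the rises were among the 16 genes for eIF3, the complex that loads the small ribosomal subunit. *eIF3k* read 9.95, 10.10 and 10.00 in *tbph* Δ142 and 9.27, 9.38 and 9.31 in *w1118* (0.70 ± 0.07). Of those 12 rises, 4 were kept with the covariate.

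Glial and matrix genes were more often lower than higher, where 15% of all genes were lower and 10.0% higher. Of 29 genes of glia and the blood-brain barrier 12 fell and 2 rose (median -0.19), and 8 of the falls were kept with the actin value as a covariate. *NLaz*, a lipocalin gene, read 9.15, 9.14 and 9.30 in *tbph* Δ142 and 10.35, 10.55 and 10.36 in *w1118* (-1.23 ± 0.11), with a difference of -0.56 from *tbph* Δ23 (adjusted p = 0.0168). *Mdr65*, an efflux transporter gene of the barrier, fell by 0.77 and *Gli* (gliotactin), of the septate junction, by 0.50. The defining glial marker *repo* averaged 8.38 in *tbph* Δ142 and 8.73 in *w1118*, a fall of 0.35. Of 9 glial markers measured, 3 fell past the threshold and none rose, and most did not pass. Among the latter *Gs2*, *moody* and *alrm* stood at 0.03, 0.04 and 0.10. Markers of glia together averaged 9.44 to 9.45 in *tbph* Δ142 and 9.51 to 9.77 in *w1118*. Of 20 basement membrane and matrix genes 10 fell and 2 rose (median -0.22), with 6 falls kept under the covariate. *scb*, an integrin gene, read 6.93, 7.31 and 6.97 in *tbph* Δ142 and 8.47, 8.55 and 8.32 in *w1118* (-1.38 ± 0.14). *Col4a1* and *vkg*, the collagen IV chain genes, fell by 0.48 and 0.46, and *LanA*, for a laminin chain, by 0.54. *prc*, for the collagen-like pericardin, which was named after its value was seen, fell by 0.89 in *tbph* Δ142 only.

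Serpin and serine protease genes rose more often than they fell, while genes of blood cells moved both ways. Over all genes 10.0% were higher and 15% lower. In the hemocyte and phagocytosis list 5 of 27 genes rose and 4 fell (18.5% and 14.8%, median 0.12), the share of falls being close to that of all genes. *NimC1*, a phagocytosis receptor gene of hemocytes, read 5.30, 5.36 and 5.67 in *tbph* Δ142 and 4.03, 4.18 and 4.15 in *w1118* (1.32 ± 0.11), and lay 0.47 above *tbph* Δ23 (adjusted p = 0.037). *NimB1* and *NimB2* rose by 1.79 and 1.38, and *NimC4*, the receptor that glia use to clear dead neurons, fell by 1.86. Hemocyte markers averaged 5.67 to 5.90 in *tbph* Δ142 and 5.16 to 5.42 in *w1118*, with 1 of 8, *NimC1*, past the threshold. Of 58 serpin and serine protease genes 12 rose and 2 fell (20.7% and 3.45%, median 0.10). *Spn88Eb* read 10.01, 10.79 and 10.32 in *tbph* Δ142 and 7.62, 8.28 and 7.45 in *w1118* (2.59 ± 0.25), and *Hayan*, a protease gene of the melanisation cascade, rose by 1.39. In muscle, *TpnC4* rose by 2.43 and *Act79B* fell by 1.75, among 2 rises and 6 falls in 24 genes (8.33% and 25%).

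Genes of protein and organelle turnover were mostly lower where they were called, while 15% of all genes were lower and 10.0% higher. All 26 measured proteasome genes fell, between 0.91 and 1.46 units on the log2 scale, and all 26 kept the call with the actin value as a covariate. *Rpt5* read 9.82, 9.74 and 9.98 in *tbph* Δ142 and 11.16, 11.56 and 11.19 in *w1118*. The list median was -1.16 in *tbph* Δ142 and -0.74 in *tbph* Δ23, and 5 genes, *Rpn11* and *Rpn3* among them, were lower in *tbph* Δ142 than in *tbph* Δ23 past the threshold (differences of -0.54 and -0.58). Of 23 autophagy genes 7 fell and 1 rose (30.4% and 4.35%), of which 5 and 1 were kept with the covariate. With array medians set equal 4 autophagy genes fell. *Atg3* stood at -0.59 and *Atg13* at -0.57. Of 47 V-ATPase and lysosome genes 11 fell (23.4%) and none rose, and 3 of the falls were kept with the covariate. With array medians set equal 7 of these genes fell and 2 rose. *CtsB*, a cathepsin gene, fell by 0.44 in *tbph* Δ142 only. Of 14 antioxidant genes 3 fell and 2 rose (21.4% and 14.3%), the rises being *Sod3* and *Gclc*. *Sod3* stood at 0.71 as the median of a pair of probe sets, but the brighter one stood at -0.20 (adjusted p = 0.175), and *Gclc*, of glutathione synthesis, rose by 0.36, while *Cat* (catalase), *Sod2* and *Prx6c* fell by 0.68, 0.61 and 1.20.

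Further calls fell in lists of stress and signalling genes. *Tsf1*, for the iron carrier transferrin, rose by 1.57. *MtnD*, a metallothionein gene, read 6.82, 6.90 and 6.96 in *tbph* Δ142 and 4.68, 5.91 and 4.70 in *w1118* (1.80 ± 0.57, adjusted p = 0.0377), with a difference of -2.63 from *tbph* Δ23 (adjusted p = 0.0283). Its difference from *w1118* passed in 1 of the 6 fits that left out 1 array, the one without replicate 2 of *w1118*, and reached an adjusted p of 0.117 in the others. *IFT54*, of the ciliary transport machinery, read 5.50, 5.93 and 5.73 in *tbph* Δ142 and 4.74, 4.75 and 4.73 in *w1118* (0.98 ± 0.11), with a difference of -2.47 from *tbph* Δ23 (adjusted p = 1.05e-06). *wnd*, the kinase gene that acts in axon injury signalling, rose by 1.32, and *dlp*, a glypican gene, by 1.01. Of 13 measured genes of the Imd pathway, which answers bacterial peptidoglycan, 7 rose and 2 fell (53.8% and 15.4%, median 0.34), and 6 and 1 were kept with the actin value as a covariate. *Rel*, the Imd pathway's NF-κB gene, rose by 1.41 and *pirk* and *PGRP-LB*, which restrain that pathway, by 1.60 and 2.38. In *tbph* Δ23 *Rel*, *pirk* and *PGRP-LB* differed from *w1118* by 1.42, 1.54 and 2.28. Lists with few calls included the neuronal RNA-binding proteins (2 higher and 4 lower of 36, *TBPH* among the lower), the unfolded protein and integrated stress response (2 and 1 of 21), DNA replication (0 and 1 of 20) and histone modifiers (2 and 1 of 27).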

How the data were processed

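Whole heads of 4 groups of flies were hybridised to Affymetrix Drosophila Genome 2.0 arrays, 3 arrays per group. The authors deposited RMA values on the log2 scale; the sources used here do not give the RMA version. Of 18952 probe sets, 13647 are listed with 1 gene, 402 with several and 4903 with none, 183 of the last being controls. Symbols of 13544 were updated by gene ID through RefSeq (Release 6 plus ISO1 MT) and 103 kept the annotated symbol. Probe sets of a gene were collapsed by their median, giving 11982 genes (2 or more probe sets for 1094).

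Group means were fitted over all 12 arrays with limma 3.58.1 in R 4.3.3, which pools the spread of the 4 groups, with Benjamini-Hochberg adjustment over all genes at 0.05. The number of arrays limits the precision, and the median standard error of a difference was 0.0928. Where the replicates do not come from separate flies, p-values measure only the spread between these samples. In simulated data on the same genes, 200 genes were changed in *tbph* Δ142, with independent noise in each array. Of genes changed by 0.5 on the log2 scale 77.3% were recovered against *w1118*, of those changed by 1 95.5% and by 2 98.5%. There 6 unchanged genes were called. Far more genes passed in the real data (25.0%), and RNA quality was not simulated, so these shares do not measure recovery in the real comparison.

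A gene changed in *tbph* Δ142 only passed against *w1118* in *tbph* Δ142 and not in *tbph* Δ23, and passed between the mutants in the same direction. The genes named are *TBPH* and *RpL32*, the 15 largest rises and falls, overall and among genes changed in *tbph* Δ142 only, up to 5 called genes with the largest difference in each list, neighbours of *TBPH* and cell type markers. Genes named after their values were seen are *Adi1*, *Agxt*, *Aprt*, *Prat2*, *prc*, *e*, *knk*, *Ahcy*, *Got1* and *Galphaq*. The members and lists were chosen with earlier results of these data known. Alternatives were another scaling, collapse, filter, variance model, array weights, sample set, call rule, a replicate block, the actin covariate and each array left out in turn. Array files name no genome build, so no coordinates are given.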

Additional observations from a re-analysis of the deposited data

Results flagged for a closer look

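The effects of the 2 alleles on a gene, each against the same *w1118* arrays, were compared through their difference, *tbph* Δ142 minus *tbph* Δ23 on the log2 scale, in limma. The genes named in the text that passed at an adjusted p under 0.05 are given here. For genes changed in *tbph* Δ142 only this difference is part of the rule that chose them. Among their rises the difference was largest in *hll*, *CG7900*, *Miox*, *CG6654*, *glob1* and *pug*, at 1.76, 1.66, 1.54, 1.17, 1.04 and 0.94. It was 0.93, 0.85, 0.81, 0.76, 0.75 and 0.73 in *Tdh*, *Aprt*, *Ahcy*, *TotF*, *CG3301* and *bgm*. Of those rises, *Agxt*, *Prat2*, *Tsp42Ed*, *l(2)efl*, *bmm* and *Adi1* had differences of 0.71, 0.66, 0.66, 0.64, 0.63 and 0.48. In *Got1* it came to 0.28. Among their falls it was largest in *CG2444*, *lush*, *CG11668*, *Arc42*, *frm* and *TBPH*, at -2.10, -1.97, -1.92, -1.76, -1.58 and -1.52. For the falls of *Hsp26*, *Cht5*, *e*, *alpha-Est10*, *CHKov2* and *Eh* it was -1.52, -1.13, -1.01, -0.94, -0.93 and -0.84. Smaller differences were found in *prc*, *knk*, *prt*, *alpha-Est9*, *Adar* and *slo*, at -0.81, -0.72, -0.63, -0.59, -0.54 and -0.54. The smallest were in *VGAT*, *CtsB*, *milt* and *dpr13*, at -0.47, -0.40, -0.39 and -0.28.

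Genes outside that rule also differed between the alleles. Higher in *tbph* Δ142 than in *tbph* Δ23 were *Sardh*, *Obp8a*, *Shmt*, *NimC1*, *Cyp12c1* and *Pgm1*, by 0.90, 0.71, 0.65, 0.47, 0.46 and 0.44. So was *dlp*, by 0.37, and so were *Yp1*, *Yp2* and *Yp3*, by 1.92, 2.84 and 2.06. Lower in *tbph* Δ142 than in *tbph* Δ23 were *MtnD*, *IFT54*, *CG11893*, *cysu*, *Eip78C* and *TwdlT*, with differences of -2.63, -2.47, -2.47, -1.09, -0.89 and -0.85. So were *CecB*, *Rpn3*, *NLaz*, *Rpn11* and *shi*, with differences of -0.78, -0.58, -0.56, -0.54 and -0.44. The value of *shi* rests on 1 of its 3 probe sets. *MtnD*, *IFT54* and *CecB* rose in both alleles and rose less in *tbph* Δ142.

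Outside the genes compared, probe sets with no single gene listed also differed between *tbph* Δ142 and *w1118* heads. Of 4720 probe sets with no listed gene, 396 passed (8.39%), 201 higher and 195 lower in *tbph* Δ142. Of 402 probe sets listed with several genes, 91 passed (22.6%), 45 higher and 46 lower.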

How the results depend on the processing

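The fall of *TBPH* kept its direction and passed under every alternative, at -2.55 with the brightest probe set and -1.37 to -1.54 otherwise, and at -1.44 to -1.40 without 1 array. The count of 2996 genes changed in *tbph* Δ142 was 1716 with the actin covariate (674 higher, 1042 lower), 1845 at an adjusted p under 0.01 (687 higher, 1158 lower) and 467 with a difference of at least 1 (192 higher, 275 lower). Without 1 array it was 2347 to 2677 (961 to 1035 higher, 1369 to 1656 lower), and other alternatives gave 2756 to 3519. The count of 153 genes changed in *tbph* Δ142 only was 12 with the covariate (4 higher, 8 lower), 285 with array weights (140 higher, 145 lower), 40 at 0.01 (16 higher, 24 lower) and 31 with a difference of at least 1 (15 higher, 16 lower). Without 1 array it was 47 to 185 (17 to 77 higher, 30 to 108 lower). The causes were not tested.

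Replicate numbers gave no sign of pairing, since deviations of same-numbered arrays correlated at -0.212 to 0.0914 and none of 18 pairs was over 0.1. With 3 arrays per group this check cannot exclude a pairing or a shared batch. With the replicate block 2756 genes changed (1103 higher, 1653 lower) and 111 changed in *tbph* Δ142 only (50 higher, 61 lower), and *TBPH* stayed at -1.42. Of 373 called genes in the lists and rankings, 256 kept the call with the covariate, and 74 lost it without at least 1 array, none with a reversed sign. With the brightest probe set 4 turned sign, *CG3301* to -0.11, *dl* to -0.020, *Sod3* to -0.20 and *Galphaq* to -0.27. *Yp3*, which did not pass, stood at -0.0064 to 0.81 without 1 array. Centring moved the median of all genes by 0.04, and 32 of the 373 genes then lost the call.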
